A study of Mus musculus with 8 samples.

Results

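The genes described here are 9 regulators of the step at which a cell stops or starts dividing, out of 13227 genes measured in mouse heart. They are Cdkn1a, Gadd45a, Mdm2, Ccng1 and Trp53, which belong to the p53 arrest pathway, the D-type cyclin genes Ccnd1, Ccnd2 and Ccnd3, and Myc. All 9 were found by symbol among the deposited genes and all 9 passed the filter on low counts. A gene can pass that filter through the hearts of 1 genotype alone. The lowest count of any member in any heart was 45, for Myc in non-transgenic heart B. They were chosen by name with the difference between the genotypes already known: Cdkn1a, Gadd45a, Ccnd2 and Myc had been seen to be higher with the transgene. Their levels and differences are therefore given as a description, with no p-value.

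The hearts are labelled as from adult male FVB/N mice, an inbred strain, at 3 months of age. There were 4 FASTKD1 transgenic hearts (A, B, C and E), and hearts A, B, D and E of the non-transgenic group, also 4; strain, sex and age are labelled the same in both, which the counts of 1 library go against for sex, and no treatment is named. FASTKD1 is a mitochondrial RNA-binding protein, and the series title places its overexpression in the heart; the promoter that drives the transgene and the number of founder lines are not given in the sources used here. Whole hearts were homogenized, so that fewer cells of a type and less RNA per cell cannot be told apart.

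Total counts ran from 44584359 to 55769859 in transgenic hearts and from 45802079 to 50830215 in non-transgenic hearts. Fastkd1 was at 8845 to 11516 CPM (counts scaled to a common library size) in transgenic hearts and at 26.3 (A), 30.2 (B) and 33.8 (E) CPM in non-transgenic hearts. Means below carry ± SD over the 4 hearts of a genotype. A pair of libraries stood apart. The library labelled non-transgenic D had 192 CPM of Fastkd1 and 0 counts of the Y chromosome genes Uty, Kdm5d, Ddx3y and Eif2s3y together, against 10372 to 15914 counts in each of the other hearts. The 0 counts go against its male label, and its Fastkd1 level was above those of the other non-transgenic hearts and below those of all transgenic hearts, so that its label is in doubt; it is called non-transgenic heart D by that label. Transgenic heart A had a summed level of 3256 CPM over 6 atrial marker genes, non-transgenic heart D had 624 CPM, and the other hearts had 31.5 to 281 CPM. The summed level of 7 cardiomyocyte genes was 51317 to 53175 CPM in transgenic hearts and 61997 to 73264 CPM in non-transgenic hearts, without overlap. Sums over 7 genes each overlapped for endothelium (774 to 816 CPM in transgenic and 794 to 893 CPM in non-transgenic hearts), fibroblasts (1184 to 1674 CPM in transgenic and 1231 to 1674 CPM in non-transgenic hearts) and macrophages (159 to 208 CPM in transgenic and 158 to 218 CPM in non-transgenic hearts). Of 61 markers tested over 13 cell type lists, edgeR called 0 at an adjusted p of 0.05, beside 133 higher and 32 lower of all 13226 genes. At an unadjusted p under 0.05, 1 marker was higher and 12 were lower, beside 710 higher and 711 lower over all genes. DESeq2 called 1 marker higher and 5 lower, beside 249 and 159 over all genes. For limma-voom it was 1 higher and 0 lower, beside 135 and 32. Lower markers thus made up a larger share by unadjusted p and by DESeq2 than lower genes did over all genes. The part of cell composition in the differences below was not tested.

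The p53 protein is a transcription factor that DNA damage and other stresses stabilize. Among its classical targets are Cdkn1a, which encodes the CDK inhibitor p21, Gadd45a, a growth arrest gene, Ccng1, which encodes cyclin G1, and Mdm2, the ligase that marks p53 for degradation and so closes a feedback loop. D-type cyclins bind CDK4 or CDK6 and push a cell towards S phase by phosphorylating the retinoblastoma protein, while Myc, paired with Max, drives genes of growth and ribosome production. Adult mouse cardiomyocytes have largely left the cell cycle, and D-type cyclins and Myc are known as drivers of heart growth.

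The promoters of Cdkn1a and Gadd45a are shown because these genes had the largest differences of the 5 members of the p53 pathway. The windows are from RefSeq on GRCm38.p6 and hold the 250 bases before an annotated start, 5′ to 3′; Cdkn1a has a pair of annotated starts. Capitals mark matches to the p53 decamer, the repeated unit of the p53 response element.
Cdkn1a, upstream start (chr17:29090729-29090978, plus strand): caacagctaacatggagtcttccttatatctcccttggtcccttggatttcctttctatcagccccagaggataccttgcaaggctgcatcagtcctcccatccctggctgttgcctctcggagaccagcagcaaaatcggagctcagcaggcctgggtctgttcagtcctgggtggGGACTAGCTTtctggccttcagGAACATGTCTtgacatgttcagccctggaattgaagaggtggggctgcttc
Cdkn1a, downstream start (chr17:29093519-29093768, plus strand): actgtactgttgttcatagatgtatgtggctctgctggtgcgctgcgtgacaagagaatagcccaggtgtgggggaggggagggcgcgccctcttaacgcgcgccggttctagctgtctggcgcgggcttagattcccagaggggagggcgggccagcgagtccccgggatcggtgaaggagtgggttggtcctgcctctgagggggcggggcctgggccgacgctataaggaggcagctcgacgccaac
Gadd45a (chr6:67037408-67037657, minus strand): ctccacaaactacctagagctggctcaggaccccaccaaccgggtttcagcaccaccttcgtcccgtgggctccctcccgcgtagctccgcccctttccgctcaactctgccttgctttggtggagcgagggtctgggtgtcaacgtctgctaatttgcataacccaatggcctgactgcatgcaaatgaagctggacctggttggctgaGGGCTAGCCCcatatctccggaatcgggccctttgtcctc

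The RefSeq table matched 6 of the 9 members with 8 windows; Ccnd1, Ccnd2 and Myc are named only. Each window of 300 bases reached 50 bases past the start and was searched on both strands for exact matches. Matches to the p53 decamer began 73 and 51 bases before the upstream start of Cdkn1a and 40 bases before that of Gadd45a. The window at the downstream start of Cdkn1a held 0 matches. The decamer was also present once each in the windows of Mdm2, Ccng1 and Trp53, whose levels overlapped between the genotypes, and 8.36% of all 32851 windows of the same length held it. The core of the C/EBP-ATF element, TGATGCAA, was in 0 of the 8 windows and in 0.895% of all windows. The E-box CACGTG, a sequence that Myc with Max can bind, occurred in the window of Trp53 and in 7.15% of all windows. TATAAA occurred in the window of Trp53 and in 13.6% of all windows. These matches describe letters in these windows and say nothing of binding.

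In FASTKD1 transgenic hearts, a CDK inhibitor and a growth arrest gene stood higher together with a D-type cyclin and Myc. By group means Cdkn1a was 4.28-fold, Gadd45a 3.08-fold, Ccnd2 2.51-fold and Myc 4.49-fold higher than in non-transgenic hearts, and for these 4 genes each transgenic heart was above each non-transgenic heart, as for 4.58% of all genes tested. For 0 of the 9 genes was each transgenic heart below each non-transgenic heart, beside 2.8% of all genes. Trp53, Mdm2, Ccng1, Ccnd1 and Ccnd3 overlapped between the genotypes.

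Cdkn1a (ENSMUSG00000023067; GRCm38 chromosome 17, 29090976 to 29100727, plus strand) stood at 38.0 (A), 63.1 (B), 45.5 (C) and 44.0 (E) CPM in transgenic hearts, against 13.3 (A), 8.99 (B), 10.1 (D) and 12.2 (E) CPM in non-transgenic hearts. Each transgenic heart was above each non-transgenic heart, and the lowest transgenic heart was 2.86 times the highest non-transgenic one. The means were 47.6 ± 10.8 CPM in transgenic hearts and 11.1 ± 1.95 CPM in non-transgenic hearts, a log2 fold change of 2.1 (SE 0.18). By size of the log2 fold change Cdkn1a ranked 52 from the top of the 13226 genes tested.

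Gadd45a (ENSMUSG00000036390; chromosome 6, 67035096 to 67037457, minus strand), whose protein binds PCNA and the stress kinase encoded by Map3k4, stood at 17.8 (A), 27.8 (B), 20.7 (C) and 24.9 (E) CPM in transgenic hearts. In non-transgenic hearts it stood at 8.79 (A), 8.01 (B), 6.52 (D) and 6.30 (E) CPM. The groups did not overlap, and transgenic heart B was again the highest and A the lowest of the transgenic hearts, as for Cdkn1a. Gadd45a averaged 22.8 ± 4.44 CPM in transgenic hearts and 7.41 ± 1.2 CPM in non-transgenic hearts, with a log2 fold change of 1.62 (SE 0.17). The ratio of Gadd45a to Cdkn1a CPM was 0.441 to 0.566 in transgenic hearts and 0.517 to 0.892 in non-transgenic hearts, with overlap at heart E of both groups.

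The other members of the p53 pathway overlapped between the genotypes. Trp53 (ENSMUSG00000059552; chromosome 11, 69580359 to 69591873, plus strand), which encodes p53 itself, had 12.4 (A), 17.0 (B), 17.7 (C) and 18.5 (E) CPM in transgenic hearts and 12.7 (A), 9.73 (B), 19.3 (D) and 14.8 (E) CPM in non-transgenic hearts. Non-transgenic heart D was the highest of all 8 and non-transgenic heart B the lowest. Without the libraries that stood apart, transgenic A and non-transgenic D, the groups did not overlap. Trp53 was then at 17.0 to 18.5 CPM in transgenic hearts and 9.73 to 14.8 CPM in non-transgenic hearts. The log2 fold change of Trp53 was 0.21 (SE 0.20); without the 2 libraries that stood apart it was 0.51 (SE 0.16), and it was 0.39 without non-transgenic heart D and 0.07 without non-transgenic heart B.

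Mdm2 (ENSMUSG00000020184; chromosome 10, 117688875 to 117710758, minus strand) had 55.5 (A), 47.9 (B), 60.9 (C) and 55.9 (E) CPM in transgenic hearts and 39.2 (A), 58.2 (B), 56.0 (D) and 58.1 (E) CPM in non-transgenic hearts. Apart from non-transgenic heart A, the non-transgenic hearts lay within the range of the transgenic ones. Mdm2 had a log2 fold change of 0.06 (SE 0.13), which was -0.06 without non-transgenic heart A and -0.0073 without transgenic heart C. The ratio of Cdkn1a to Mdm2 CPM was 0.684 to 1.32 in transgenic hearts and 0.154 to 0.339 in non-transgenic hearts.

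Ccng1 (ENSMUSG00000020326; chromosome 11, 40748552 to 40755311, minus strand) had 1484 (A), 1318 (B), 1346 (C) and 1141 (E) CPM in transgenic hearts, against 1559.7 (A), 2221 (B), 1286 (D) and 1495 (E) CPM in non-transgenic hearts. The highest heart was non-transgenic B, which was the lowest for Trp53; the lowest, transgenic E and non-transgenic D, were the hearts with the most Trp53. For Ccng1 the log2 fold change was -0.31 (SE 0.16), and -0.13 without non-transgenic heart B. Without transgenic A and non-transgenic D it was -0.47 (SE 0.165). Ccng1 then did not overlap, at 1141 to 1346 CPM in transgenic hearts and 1495 to 2221 CPM in non-transgenic hearts. Ccng1 was at a level above 99.6% of the genes tested.

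**Figure D1:**
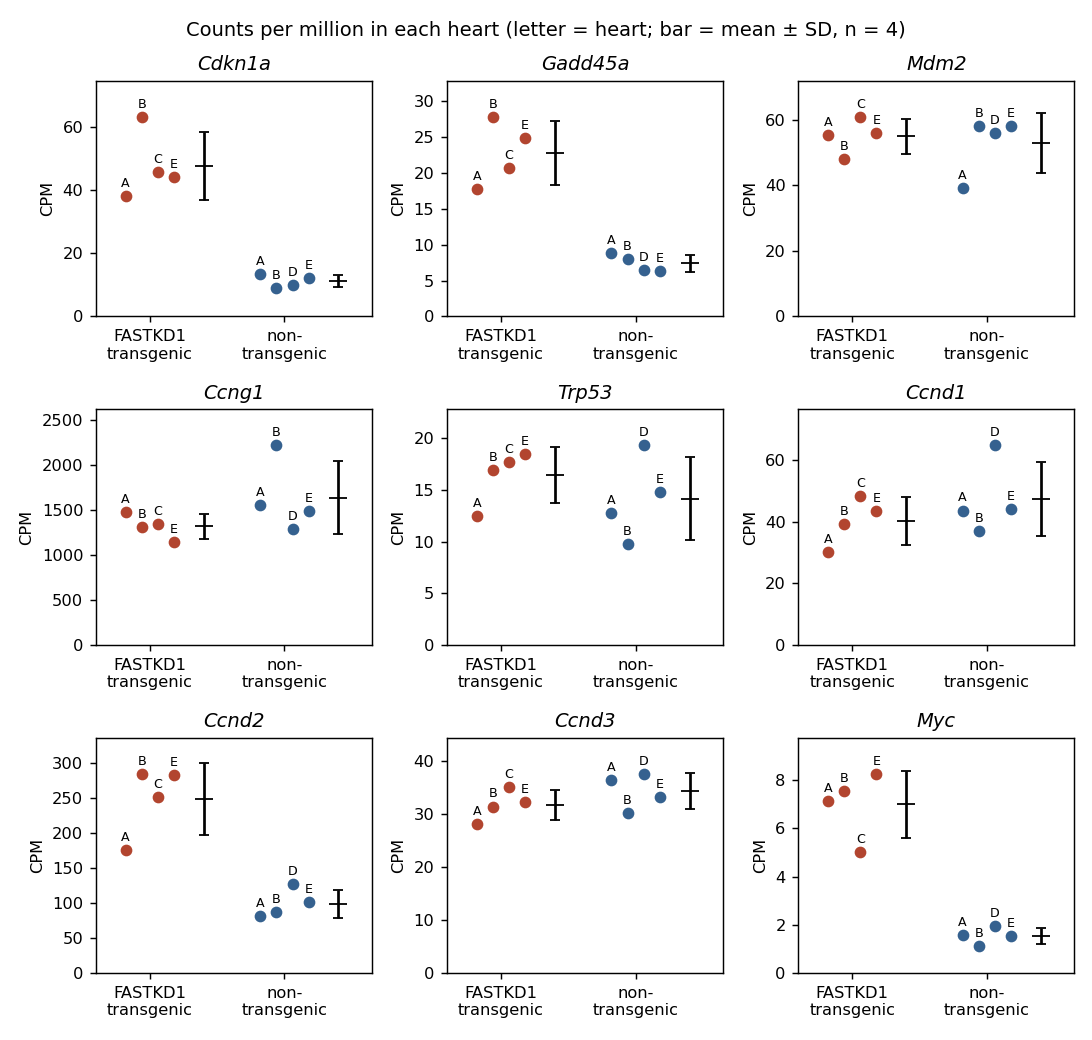
CPM on the library sizes after TMM scaling (y axis, linear, from 0) for each of the 9 genes in FASTKD1 transgenic hearts (left, red) and non-transgenic hearts (right, blue); letters name hearts, bars are mean ± SD (n = 4). Cdkn1a, Gadd45a, Ccnd2 and Myc do not overlap between the groups, and the other 5 genes do.

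Among the D-type cyclins the difference lay in Ccnd2 (ENSMUSG00000000184; chromosome 6, 127125162 to 127152193, minus strand). It had 176 (A), 285 (B), 252 (C) and 283 (E) CPM in transgenic hearts and 81.5 (A), 87.1 (B), 127 (D) and 101 (E) CPM in non-transgenic hearts. The libraries that stood apart were the closest of the groups, with transgenic A the lowest transgenic and non-transgenic D the highest non-transgenic heart, at a ratio of 1.38. Ccnd2 averaged 249 ± 50.9 CPM in transgenic hearts and 99.3 ± 20.4 CPM in non-transgenic hearts. Its log2 fold change was 1.32 (SE 0.18), and 1.60 (SE 0.12) without those libraries.

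Ccnd1 (ENSMUSG00000070348; chromosome 7, 144929931 to 144939925, minus strand) had 30.1 (A), 39.2 (B), 48.4 (C) and 43.6 (E) CPM in transgenic hearts and 43.6 (A), 37.2 (B), 64.8 (D) and 44.0 (E) CPM in non-transgenic hearts. The groups overlapped, with transgenic A the lowest and non-transgenic D the highest of the 8 hearts. Ccnd1 had a log2 fold change of -0.23 (SE 0.19), -0.05 without non-transgenic heart D, -0.12 without transgenic heart A and 0.07 (SE 0.12) without both. Ccnd1 shares 1100 exon bases with the gene LTO1 on the opposite strand, which had 7919 counts over the 8 libraries beside 17572 of Ccnd1. Whether the counting used strand is not given in the sources used here, so that reads from the shared bases cannot be told apart.

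Ccnd3 (ENSMUSG00000034165; chromosome 17, 47505051 to 47599691, plus strand) had the narrowest spread of the 9 genes, with 28.1 to 35.2 CPM in transgenic hearts and 30.2 to 37.7 CPM in non-transgenic hearts. The ranges overlapped, and the log2 fold change was -0.11 (SE 0.10). Ccnd3 shares 361 exon bases with Bysl on the opposite strand, under the same limit. Cdkn1a, Gadd45a and Ccnd2 share 273 to 372 exon bases with opposite-strand noncoding genes that are not analysed here.

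Per length, as RPKM (CPM divided by the union exon length in kilobases), the D-type cyclins can be set against each other. Ccnd2 made up 66.1% (A), 71.7% (B), 65.2% (C) and 69.9% (E) of the summed D-type cyclin RPKM in transgenic hearts, against 39.2% (A), 45.0% (B), 42.8% (D) and 45.0% (E) in non-transgenic hearts. The share did not overlap, and transgenic A and non-transgenic D lay inside the range of their groups. Ccnd1 made up 19.7% to 25.1% in transgenic hearts and 38.3% to 43.6% in non-transgenic hearts. As a part of the same sum, this share falls when Ccnd2 is higher. The RPKM of Ccnd1 itself overlapped, at 6.39 to 10.3 in transgenic and 7.89 to 13.8 in non-transgenic hearts. The sum of the 3 genes was 28.3 to 43.0 RPKM in transgenic hearts and 20.6 to 31.6 RPKM in non-transgenic hearts, with overlap between transgenic heart A and non-transgenic heart D.

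**Figure D2:**
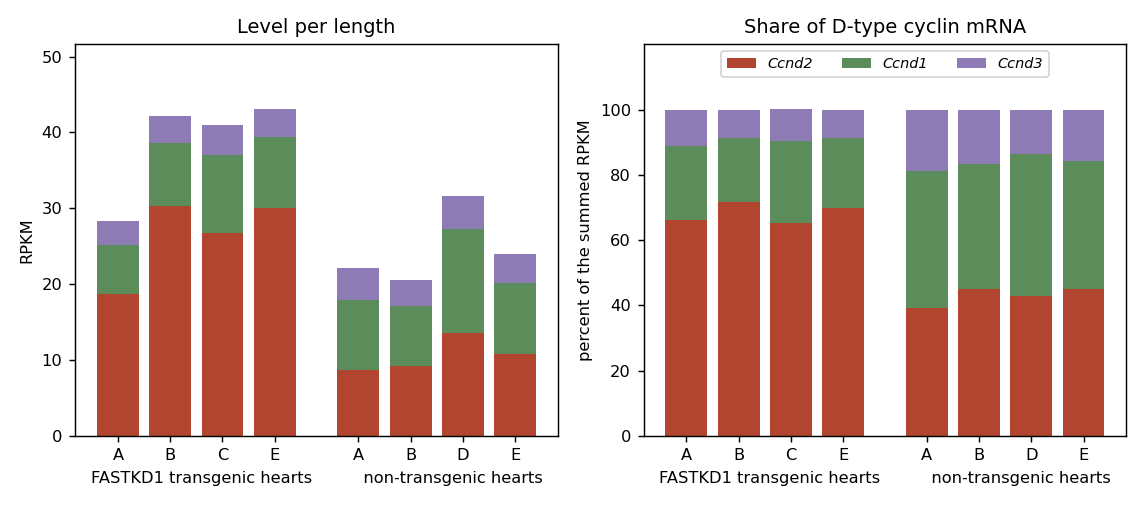
RPKM of Ccnd1, Ccnd2 and Ccnd3 stacked per heart (left) and as a percent of their sum (right), with the FASTKD1 transgenic hearts before the non-transgenic hearts on each x axis. Ccnd2 takes 65.2% to 71.7% of the sum in transgenic hearts and 39.2% to 45.0% in non-transgenic hearts.

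Myc (ENSMUSG00000022346; chromosome 15, 61985391 to 61990374, plus strand) was the lowest of the 9 genes. It had 315 (A), 378 (B), 296 (C) and 408 (E) counts in transgenic hearts and 70 (A), 45 (B), 108 (D) and 81 (E) counts in non-transgenic hearts. In CPM this was 7.15 (A), 7.56 (B), 5.01 (C) and 8.26 (E) in transgenic hearts and 1.59 (A), 1.15 (B), 1.96 (D) and 1.54 (E) in non-transgenic hearts. The groups did not overlap, and here C, not A, was the lowest transgenic heart. Myc averaged 6.99 ± 1.40 CPM in transgenic hearts and 1.56 ± 0.33 CPM in non-transgenic hearts. Its log2 fold change was 2.16 (SE 0.20), the largest of the 9, and its rank among all genes tested was 49 from the top.

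By edgeR, Cdkn1a, Gadd45a, Ccnd2 and Myc, 4 of the 9 genes, passed an adjusted p of 0.05 and were higher with the transgene, beside 1.01% of all 13226 genes tested; 0 of the 9 passed in the lower direction, beside 0.242% of all genes; in either direction it was 1.25% of all genes. At an unadjusted p under 0.05 the counts over the 9 genes were again 4 higher and 0 lower, beside 710 higher and 711 lower over all genes. They were the same by DESeq2, beside 249 and 159 over all genes, and by limma-voom, beside 135 and 32. Since the members were chosen on this contrast, nothing is read from these counts or from those of overlap. The median log2 fold change of the 9 genes was 0.21, beside 0.01 over all genes tested. Without the 2 libraries that stood apart, the log2 fold changes were 2.15 for Cdkn1a, 1.67 for Gadd45a and 2.27 for Myc, each at least as large as with them.

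**Figure D3:**
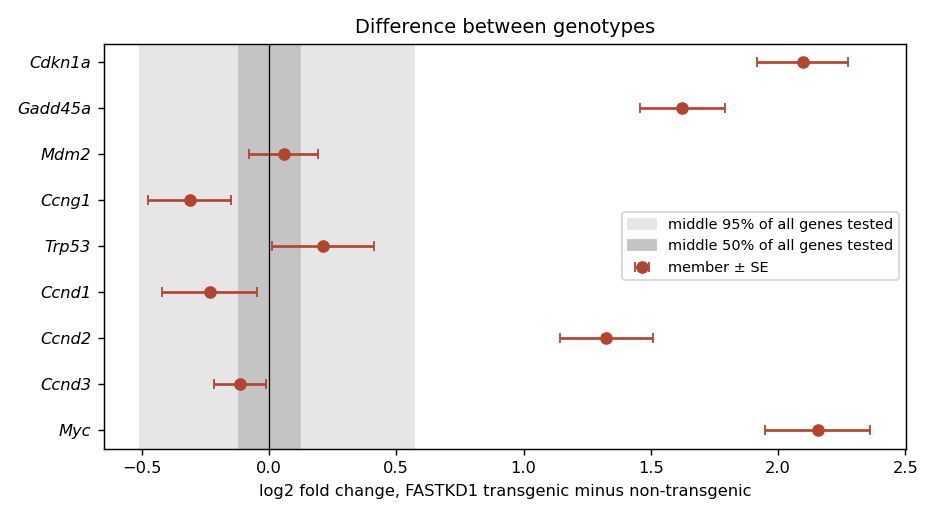
Log2 fold change of each gene, FASTKD1 transgenic minus non-transgenic (x axis; points with bars of ± SE from edgeR), over bands that hold the middle 50% and 95% of all 13226 genes tested. Cdkn1a, Gadd45a, Ccnd2 and Myc lie at 1.32 to 2.16, beyond the wider band, which ends at 0.57; the other 5 lie within it.

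The order of the levels per length differed between the genotypes. In transgenic hearts it ran from Ccng1 at 376 RPKM through Ccnd2 at 26.4, Cdkn1a at 13.4, Gadd45a at 12.9, Mdm2 at 10.8, Ccnd1 at 8.57, Trp53 at 4.05 and Ccnd3 at 3.62 to Myc at 2.57 RPKM. Of these neighbours, Cdkn1a with Gadd45a, Gadd45a with Mdm2, Mdm2 with Ccnd1, and Trp53 with Ccnd3 overlapped between hearts. In non-transgenic hearts the order was Ccng1 at 467 RPKM, Ccnd2 at 10.6, Mdm2 at 10.4, Ccnd1 at 10.1, Gadd45a at 4.20, Ccnd3 at 3.92, Trp53 at 3.50, Cdkn1a at 3.13 and Myc at 0.574 RPKM. There Ccnd2, Mdm2 and Ccnd1 overlapped as neighbours, as did those from Gadd45a to Cdkn1a. Cdkn1a thus held place 3 in transgenic hearts and place 8 in non-transgenic hearts. With the longest transcript as length, it held place 3 in transgenic and place 7 in non-transgenic hearts. Ccnd2 and Cdkn1a then overlapped in transgenic hearts, and Ccnd2 changed places with Mdm2 in non-transgenic hearts. By that length Ccnd3 also stood above Trp53 in transgenic hearts and above Gadd45a in non-transgenic hearts, in both without overlap.

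Few of the other genes of these pathways differed, as was so for all genes tested. They were taken from 9 lists that leave the members out, and the lists were drawn up with earlier results of these data known. Over 162 different genes tested, 1 rose and 0 fell by edgeR, beside 1.01% of all 13226 genes higher and 0.242% lower. At an unadjusted p under 0.05 there were 14 of the 162, beside 710 higher and 711 lower over all genes. Nothing particular to these pathways is read from these counts. The one that rose was Sesn2, which encodes sestrin 2, an inhibitor of mTORC1 signalling that p53 and other stress factors induce. It averaged 11.7 ± 1.24 CPM in transgenic hearts and 2.77 ± 0.83 CPM in non-transgenic hearts, with a log2 fold change of 2.07 (SE 0.21, edgeR adjusted p = 0.000517, higher in each transgenic heart; 1.94e-19 to 0.00738 over the alternative settings).

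In the list of other p53 targets, 31 genes were tested, of which 1 rose and 30 did not pass; 0 fell. The list had a median log2 fold change of 0.08 beside 0.01 over all genes; 4 had an unadjusted p under 0.05 in the higher direction and 1 in the lower. Perp, a p53 effector gene of cell adhesion and death, and Sesn1, the sestrin gene first known as a p53 target, were the most abundant. Perp averaged 184 ± 20.5 CPM in transgenic hearts and 202 ± 24.9 CPM in non-transgenic hearts, and Sesn1 averaged 116 ± 7.69 CPM in transgenic and 119 ± 9.80 CPM in non-transgenic hearts. DESeq2 called Trp53inp1 as well, at a log2 fold change of 0.43 (adjusted p = 0.0246), and limma-voom called 1 gene of the list. Trp53inp1 also passed in edgeR without non-transgenic heart B (adjusted p = 0.0348) and with library totals only (0.0422).

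Of 17 p53 regulators, 0 rose and 0 fell by edgeR, DESeq2 or limma-voom, with 1 at an unadjusted p under 0.05. Hipk2, a kinase that phosphorylates p53, averaged 107 ± 7.15 CPM in transgenic hearts and 78.1 ± 14.4 CPM in non-transgenic hearts (edgeR adjusted p = 0.208). Usp7, a deubiquitinase that acts on Mdm2 and p53, averaged 67.0 ± 2.56 CPM in transgenic hearts and 63.2 ± 7.44 CPM in non-transgenic hearts. Of 7 other CDK inhibitors and retinoblastoma family genes, 0 passed by any of the 3 tools and 0 had an unadjusted p under 0.05. Cdkn1b, which encodes the p21 relative p27, averaged 37.3 ± 1.58 CPM in transgenic hearts and 36.1 ± 1.98 CPM in non-transgenic hearts, and Rbl2, a retinoblastoma relative, averaged 28.0 ± 3.32 CPM in transgenic and 29.9 ± 1.94 CPM in non-transgenic hearts. The same counts of 0 held for 7 genes of the Gadd45 family and its kinase partners, among which Mapk14, which encodes p38 alpha, averaged 71.0 ± 5.05 CPM in transgenic hearts and 81.3 ± 10.7 CPM in non-transgenic hearts. Mapk9, which encodes the kinase JNK2, averaged 55.9 ± 4.86 CPM in transgenic hearts and 55.5 ± 2.68 CPM in non-transgenic hearts.

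Of 20 other G1 cyclin, CDK and E2F genes, 0 passed by any of the 3 tools, with 1 at an unadjusted p under 0.05. The most abundant were Ccni, which encodes cyclin I, at 144 ± 8.94 CPM in transgenic hearts and 127 ± 14.8 CPM in non-transgenic hearts, and the repressor gene E2f6 at 86.5 ± 6.66 CPM in transgenic and 93.1 ± 8.44 CPM in non-transgenic hearts. Of 28 genes of S, G2 and M phase, 0 passed by any of the 3 tools and 0 had an unadjusted p under 0.05. Their median log2 fold change was -0.17, but 0.11 without non-transgenic heart D and 0.16 without heart D and transgenic heart A. Their summed level was 143 to 166 CPM in transgenic hearts, and 146 (A), 162 (B), 223 (D) and 152 (E) CPM in non-transgenic hearts. Pcna, the sliding clamp of DNA replication to which p21 and the Gadd45a protein bind, averaged 27.3 ± 1.30 CPM in transgenic hearts and 29.2 ± 3.91 CPM in non-transgenic hearts. Cenpa, the centromeric histone gene, averaged 21.7 ± 1.07 CPM in transgenic hearts and 24.9 ± 3.43 CPM in non-transgenic hearts.

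Of 14 genes of the Myc network, 0 passed by any of the 3 tools and 0 had an unadjusted p under 0.05. Fbxw7, a ubiquitin ligase subunit that marks Myc for degradation, averaged 77.5 ± 3.56 CPM in transgenic hearts and 87.1 ± 7.38 CPM in non-transgenic hearts, and Usp28, which opposes it, averaged 172 ± 5.42 CPM in transgenic and 166 ± 12.4 CPM in non-transgenic hearts. Of 31 Myc targets of growth and ribosome production, 0 rose and 0 fell by edgeR, with 4 in the higher and 1 in the lower direction at an unadjusted p under 0.05. Their median log2 fold change was 0.13, and 0.07 to 0.19 with 1 library left out. Over all genes tested the median was 0.01 and the upper quartile 0.12. The log2 fold change was above 0 for 27 of the 31 targets and below 0 for 4, and the cause was not tested. DESeq2 called the nucleolar gene Rrp12 (0.65) and the spermidine synthase gene Srm (0.59) higher, and limma-voom called 0. In edgeR Rrp12 passed without transgenic heart A (adjusted p = 0.00818), Srm without non-transgenic heart D (0.0399) and the nucleostemin gene Gnl3 without non-transgenic heart B (0.0188). Ldha, the lactate dehydrogenase gene and the most abundant of the list, averaged 539 ± 42.9 CPM in transgenic hearts and 666 ± 59.5 CPM in non-transgenic hearts (edgeR adjusted p = 0.294), and the translation initiation factor gene Eif4g1 averaged 462 ± 27.1 CPM in transgenic and 455 ± 63.0 CPM in non-transgenic hearts. Of 10 senescence genes, 0 passed by any of the 3 tools, with 1 higher and 1 lower at an unadjusted p under 0.05; the most abundant, Igfbp5, was at 510 CPM in transgenic heart A and at 195 to 315 CPM in the other transgenic hearts, against 200 to 237 CPM in non-transgenic hearts. Igfbp7, which encodes a secreted IGF-binding protein family member, averaged 78.8 ± 4.42 CPM in transgenic hearts and 80.9 ± 9.0 CPM in non-transgenic hearts.

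**Figure D4:**
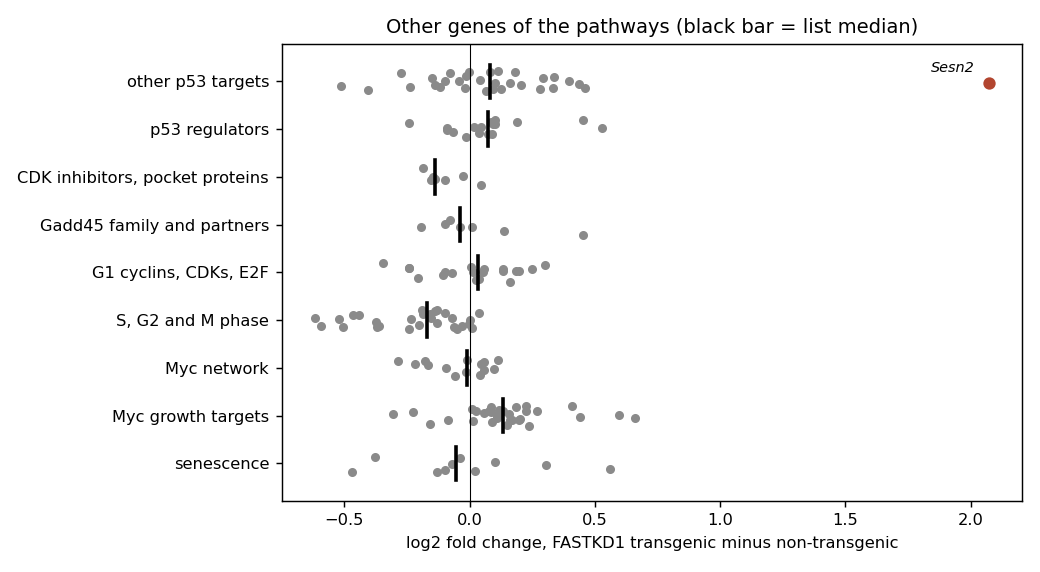
Log2 fold change, FASTKD1 transgenic minus non-transgenic (x axis), of each tested gene of the 9 lists (grey points; red for the gene past an edgeR adjusted p of 0.05), with the list median as a black bar. Sesn2 at 2.07 is the red point, and the list medians lie between -0.17 and 0.13.

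The genes with the most similar pattern were taken by Pearson's r of log2 CPM over the same 8 hearts, among genes whose mean log2 CPM was 0 or more, and r after removal of the group means stands second. For Cdkn1a the nearest were Atf5, a stress-induced transcription factor gene (0.990 and 0.789), the hormone gene Fgf21 (0.988 and 0.751) and the amino acid transporter gene Slc7a5 (0.988 and 0.753). Atf5 averaged 226 ± 42.0 CPM in transgenic hearts and 32.7 ± 7.38 CPM in non-transgenic hearts. Fgf21 averaged 9.34 ± 2.69 CPM in transgenic hearts and 0.073 ± 0.047 CPM in non-transgenic hearts. It thus passed the limit on the mean level through the transgenic hearts, and its log2 values in non-transgenic hearts depend on the prior count. Gadd45a was most like Sars (0.992 and 0.921) and Aars (0.989 and 0.837), which encode aminoacyl-tRNA synthetases, and Pmm1 (0.992 and 0.921), which encodes a phosphomannomutase. Pmm1 averaged 22.3 ± 4.86 CPM in transgenic hearts and 7.35 ± 1.41 CPM in non-transgenic hearts. Ccnd2 was most like Arhgef2 (0.985 and 0.887), Cebpg (0.984 and 0.899), a transcription factor gene of the C/EBP family, and Ubxn4 (0.980 and 0.912). Myc was most like Ccdc136 (0.992 and 0.881), Cobl (0.984 and 0.688) and Zfp385b (0.984 and 0.743). Of these 12 genes Ubxn4 did not pass the test and the others did. The 12 genes were picked by r over all 8 hearts to members that differed between the genotypes. That r includes the difference between the genotypes, so nothing is read from how many of them passed.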

How the data were processed

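RNA was sequenced from 8 hearts, with TruSeq libraries per the labels' protocols. The deposited values are raw counts per Ensembl gene, 1 library per file. The submitters' processing notes name TopHat2, cutadapt 1.15 and the builds GRCm38 and mm10, per the labels; the counter and its annotation are not given in the sources used here. Symbols, coordinates and exon lengths came from GENCODE M21, in which 12 of 13227 identifiers had no entry.

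Counts were fitted in R 4.3.3 with edgeR 4.0.16: filterByExpr (13226 genes kept), TMM scaling and the two-sided quasi-likelihood F test of transgenic against non-transgenic hearts, with Benjamini-Hochberg adjustment over all genes. Each SE was taken as the size of the log2 change over the root of its F value. CPM uses TMM library sizes, and log2 CPM of single hearts uses a prior count of 2. Total counts were 44584359 to 55769859, and the precision also depends on the spread between hearts. The fit was tested on simulated counts. Each library was taken as 1 heart by its title, and the labels do not say that the hearts came from separate litters or cages; p-values measure only the spread between these samples, which may be technical.

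Alternatives were other scalings and filters, DESeq2 1.42.0, limma-voom (limma 3.58.1), a block on title letters and leaving out libraries. Members and lists were chosen with earlier results of these data known. Named genes are the members, in each list up to 5 past the threshold and the 2 most abundant, and 3 nearest neighbours of 4 members; Trp53inp1, Rrp12, Srm, Gnl3, Mki67, Top2a and the overlapping genes LTO1 and Bysl were named after their values were seen. Protein sequences were not used here.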

Additional observations from a re-analysis of the deposited data

Results flagged for a closer look

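Single hearts far from the other 3 of their group were looked for with Dixon's ratio at the 95% level in 64 groups of 4 values, of which chance would flag about 1 in 20; 4 were found, all in non-transgenic hearts. Mdm2 was at 39.2 CPM in non-transgenic heart A, against 56.0 to 58.2 CPM in hearts B, D and E. Fastkd1 was at 192 CPM in non-transgenic heart D, against 26.3 to 33.8 CPM in the other non-transgenic hearts. In the same heart the E2F family gene E2f6 was at 80.5 CPM, against 96.2 to 98.0 CPM, and the kinase gene Mapk9 at 51.5 CPM, against 56.4 to 57.3 CPM in hearts A, B and E.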

How the results depend on the processing

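There were 17 alternative settings, 8 of which left out 1 library. The count of members past the threshold was 4 higher and 0 lower in each of them, except that it was 3 higher when an average CPM of at least 5 was required, since Myc was then not tested. The settings reuse the same libraries, and the members were chosen on this contrast in them, so nothing is read from these member counts. The log2 fold change ranged from 1.92 to 2.19 for Cdkn1a, 1.50 to 1.73 for Gadd45a, 1.24 to 1.60 for Ccnd2 and 2.04 to 2.43 for Myc. The Ccnd2 share of D-type cyclin RPKM was 67.1% in transgenic and 42.0% in non-transgenic hearts with the longest transcript as length. Over all genes, DESeq2 called 249 higher and 159 lower, against 133 and 32 by edgeR, and 103 to 168 were higher and 9 to 72 lower when 1 library was left out: 9 lower without transgenic heart B, 14 without transgenic C, 10 without non-transgenic A, 50 without non-transgenic B and 72 without non-transgenic D. Without non-transgenic D and transgenic A, 106 were lower. The count of other p53 targets that were higher was 2 with library totals only and by DESeq2, and 1 to 2 with 1 library left out. For Myc targets it was 2 by DESeq2, 2 without non-transgenic D and transgenic A, and 0 to 1 with 1 library left out. The causes were not tested. Library totals only moved the median of all genes to 0.08 on the log2 scale. With a replicate block on title letters 21 genes were lower and all 4 members called remained. Letter C was only in transgenic and D only in non-transgenic hearts, so that comparison rests on hearts A, B and E. Deviations of same-letter hearts correlated at 0.297 (A), -0.085 (B) and 0.36 (E), and those of different letters at -0.438 to 0.448. Whether the letters mark pairs cannot be told from these values. They were not taken as pairs, since the labels name no pairing.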

Other observations

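The library labelled non-transgenic D held the highest level of several proliferation genes. Mki67, which encodes the Ki-67 antigen of dividing cells, was at 4.34 to 8.35 CPM in transgenic hearts and at 4.87 to 5.40 CPM in A, B and E of the non-transgenic group, against 16.2 CPM in heart D. Top2a, the topoisomerase gene of S to M phase, was at 3.42 to 6.04 CPM in transgenic hearts and at 3.54 to 4.74 CPM in A, B and E of the non-transgenic group, against 12.9 CPM in heart D. Heart D was also the highest of the 8 hearts for Ccnd1, Ccnd3 and Trp53 among the members, and the highest non-transgenic heart for Ccnd2 and Myc. These values were picked after they were seen, and no test was made of them.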
